A study of Mus musculus with 6 samples.

Results

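Azgp1, Hrg, Ttc39c and Adamts15 were 4 of the 46095 genes counted by RNA sequencing in primary renal tubular epithelial cells (PTECs) of mice, and all 4 were among the 14611 genes with enough counts to be tested. They were chosen by the size of their fall in the cells labelled VHL-KO;SETD2-KO against the cells labelled VHL-KO, without a fixed threshold. Because the rule used this contrast, their values between the labels are given as a description and carry no test.

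The study asked what loss of the histone methyltransferase SETD2 adds to loss of the tumour suppressor VHL in renal tubules. PTECs were isolated from 10-week-old mice on a C57 background, with 3 mice under each label. Mice labelled VHL-KO carried Ksp-Cre and VHL fl/fl, and mice labelled VHL-KO;SETD2-KO (hereafter DKO-labelled) carried Ksp-Cre, VHL fl/fl and Setd2 fl/fl, so that deletion of VHL was shared by both groups. Ksp-Cre is driven by the promoter of Cdh16 (Ksp-cadherin), which is active in renal tubular epithelium. Any cells of the isolate in whose lineage this promoter was never active keep their floxed alleles.

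Zinc-alpha-2-glycoprotein, encoded by Azgp1, is a secreted protein with a fold like that of MHC class I heavy chains and is known for mobilising lipid from adipocytes. Histidine-rich glycoprotein, encoded by Hrg, is a plasma protein of the cystatin superfamily, made mainly in the liver, that binds heparan sulfate, plasminogen and thrombospondins. Adamts15 encodes a secreted metalloproteinase that cleaves hyalectans such as versican, and Ttc39c encodes a protein with tetratricopeptide repeats, a motif through which proteins bind each other.

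The promoters of Azgp1 and Hrg are shown because only these 2 of the 4 genes had a window in the promoter sequences used here. Each run holds the 250 bases before the start of the gene in RefSeq's GRCm38.p6 annotation, on the plus strand at chr5:137981271-137981520 for Azgp1 and at chr16:22950822-22951071 for Hrg. Capitals mark matches to the motifs searched.
Azgp1: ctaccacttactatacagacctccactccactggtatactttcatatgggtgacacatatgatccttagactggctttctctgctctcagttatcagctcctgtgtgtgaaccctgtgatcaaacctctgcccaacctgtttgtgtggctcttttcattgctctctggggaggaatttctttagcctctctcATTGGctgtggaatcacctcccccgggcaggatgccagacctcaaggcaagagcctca
Hrg: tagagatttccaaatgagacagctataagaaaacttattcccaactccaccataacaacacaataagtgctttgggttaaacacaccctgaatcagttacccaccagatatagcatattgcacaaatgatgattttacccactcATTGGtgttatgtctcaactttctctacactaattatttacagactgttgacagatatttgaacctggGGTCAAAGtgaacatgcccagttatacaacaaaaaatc
Both windows held ATTGG, the CCAAT box read on the other strand, 58 bases before the start in Azgp1 and 106 bases before it in Hrg. This word was present on either strand in 33.8% of the 32851 promoter windows of this length. Hrg also held GGTCAAAG, the core of the direct repeat bound by HNF4 receptors, 38 bases before the start, and 0.834% of all windows held it. The window of Azgp1 held no match to GGTCAAAG. Neither window matched TATAAA (the TATA box), ACGTG (the core of the hypoxia response element), TGTTCT (the core shared by androgen and glucocorticoid receptors) or TTCNNNGAA (the STAT palindrome) on either strand, and no match overlapped another. The share of all windows with a match was 12.4%, 16.6%, 16.1% and 7.02% for these 4 words, in the same order. The GC content was 49.6% in the window of Azgp1 and 36.4% in that of Hrg, beside a median of 52.4% over all windows. A match to a word is a description of the sequence only.

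Library totals lay between 11168552 and 17883466 counts. The deleted gene, Setd2, had 1179, 799 and 132 counts under the VHL-KO label (replicates 1, 2 and 4) and 1499, 1019 and 1429 under the DKO label (replicates 2, 3 and 4). Setd2 counts per gene were therefore not lower under the DKO label, so they do not show the deletion, and libraries are called by their labels throughout. Reads of the floxed exons cannot be told from those of the other exons in a count per gene, so these counts cannot decide whether the label holds. The paper reports lower SETD2 and H3K36me3 in renal tubules from Western blotting, immunohistochemistry and RT-qPCR. All 12 markers of the proximal tubule were detected in every library. Their summed level in CPM of the unscaled library total was 15700 to 25300 under the VHL-KO label and 7920 to 11300 under the DKO label. A pair of libraries stood apart. VHL-KO replicate 4 had 11.3% of its counts on mitochondrially encoded genes, against 25.9% to 36.4% in the other 5 libraries, and across tested genes its rank correlation with them was 0.717 to 0.765, against 0.937 to 0.986 among the rest. DKO replicate 3 had 11704 counts of Xist and 1 count over 4 Y-linked genes. Each of the other 5 libraries had at most 4 counts of Xist and at least 260 on those Y-linked genes. By these counts DKO replicate 3 was from a female mouse and the other 5 libraries from males, so sex differed within the DKO group.

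Levels are given as CPM (counts scaled to a common library total, here with TMM factors), in the order of replicates 1, 2 and 4 for the VHL-KO label and 2, 3 and 4 for the DKO label. Azgp1 was at 112, 108 and 97.4 CPM in the VHL-KO libraries and at 15.9, 6.42 and 20.2 CPM in the DKO libraries. These levels rest on 1850, 1162 and 1041 counts and on 300, 114 and 322 counts. The labels did not overlap, and the lowest VHL-KO library was 4.82-fold above the highest DKO library. Its mean level was 106 ± 7.56 CPM (SD, n = 3) against 14.2 ± 7.05 CPM (SD, n = 3), a log2 fold change of -2.90 (SE 0.52), so that 13.4% of the VHL-KO level remained. Azgp1 stood 20th by size of fall among all tested genes. DKO replicate 3 was the low library of its group, with replicates 2 and 4 at 2.48-fold and 3.15-fold its level.

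Hrg had the largest fall of the 4 and the lowest counts. Its counts were 106, 76 and 113 in the VHL-KO libraries and 18, 3 and 15 in the DKO libraries, which gave levels of 6.43, 7.03 and 10.6 CPM and of 0.956, 0.169 and 0.941 CPM. The lowest VHL-KO library was 6.72-fold above the highest DKO library. Mean levels were 8.01 ± 2.24 CPM (SD, n = 3) and 0.689 ± 0.45 CPM (SD, n = 3), with a log2 fold change of -3.52 (SE 0.69), and 8.69% of the VHL-KO level remained. The 3 counts of DKO replicate 3 are at the floor taken as detectable, and their exact 95% Poisson interval was 0.0348 to 0.494 CPM, which covers counting error only. Hrg stood 9th by size of fall among all tested genes. With both libraries that stood apart left out, an alternative chosen after seeing the data, its log2 fold change was -2.81.

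Ttc39c had the smallest fall of the 4 and the least relative spread under the DKO label. It was at 44.7, 47.7 and 63.3 CPM in the VHL-KO libraries and at 12.7, 13.1 and 16.2 CPM in the DKO libraries, from 738, 516 and 677 counts and from 239, 232 and 258 counts. VHL-KO replicate 4 was the highest library, and the labels were 2.76-fold apart at their nearest. The mean level was 51.9 ± 9.97 CPM (SD, n = 3) against 14.0 ± 1.92 CPM (SD, n = 3), a log2 fold change of -1.89 (SE 0.38). The remaining level was 26.9% of that under the VHL-KO label, and the rank by size of fall was 184.

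Adamts15 was at 39.0, 32.4 and 35.6 CPM in the VHL-KO libraries and at 5.53, 5.07 and 12.6 CPM in the DKO libraries, from 644, 350 and 381 counts and from 104, 90 and 201 counts. DKO replicate 4 was the high library of its group, and the lowest VHL-KO library lay 2.57-fold above it. The mean level was 35.7 ± 3.33 CPM (SD, n = 3) against 7.73 ± 4.23 CPM (SD, n = 3), with a log2 fold change of -2.21 (SE 0.48) and 21.7% of the VHL-KO level remaining. Adamts15 stood 86th by size of fall.

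**Figure D1:**
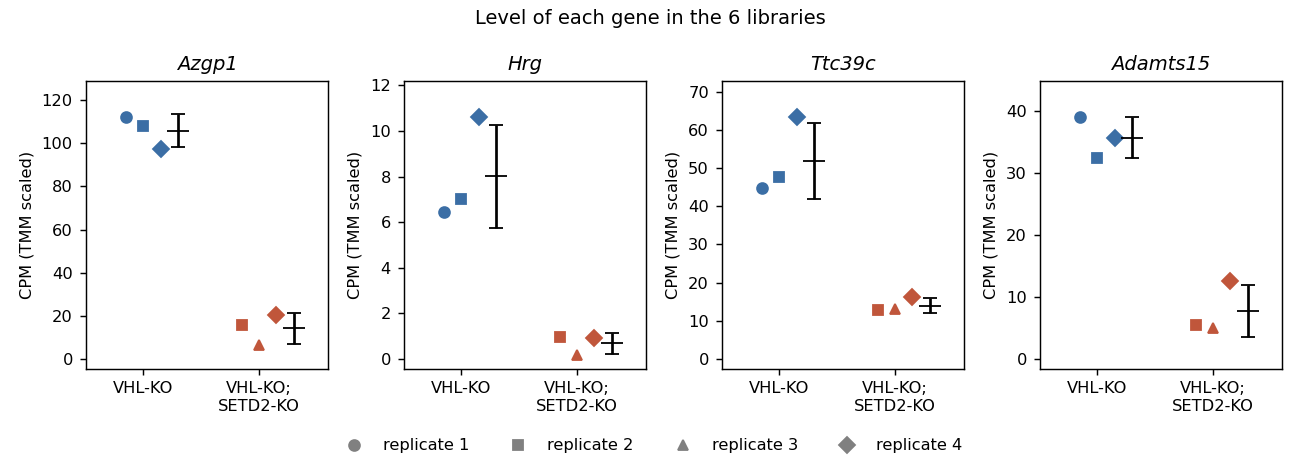
Level of each of the 4 genes in CPM (TMM scaled, linear axes with a separate range for each gene) in the 6 libraries, by label, with the symbol giving the replicate number and the bar giving the mean ± SD (n = 3). Every VHL-KO library lay above every DKO library for each gene, and DKO replicate 3 was the lowest library for Azgp1 (6.42 CPM) and Hrg (0.169 CPM).

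All 4 genes passed the rule of an unadjusted p under 0.05 with a fold change of at least 1.5 in edgeR's quasi-likelihood test, and all 4 had no overlap between the labels. Among all tested genes, 4.68% were lower by the first rule and 2.65% higher, while 11.0% were lower without overlap and 9.62% higher without overlap. The 4 genes were selected on this fall, so nothing was read from these counts. In bulk samples, fewer cells of a type and less RNA per cell cannot be told apart.

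Relative spread differed among the 4 genes and between the labels. Under the VHL-KO label the coefficient of variation of the level was 7.15% for Azgp1, 27.9% for Hrg, 19.2% for Ttc39c and 9.33% for Adamts15. Under the DKO label it was 49.7%, 65.4%, 13.7% and 54.7%, higher for all but Ttc39c. With 3 mice per label these spreads were not tested against each other.

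Compared per kilobase of exon (union of exons in GENCODE M21), Azgp1 had the highest level under both labels, at 65.6 ± 4.7 CPM per kb (SD, n = 3) in VHL-KO libraries and 8.81 ± 4.38 CPM per kb in DKO libraries. Ttc39c was next in both, at 7.18 ± 1.38 and 1.93 ± 0.265 CPM per kb. Under the VHL-KO label Hrg (4.02 ± 1.12 CPM per kb) and Adamts15 (3.44 ± 0.321 CPM per kb) overlapped and had no clear order. Under the DKO label the level per kilobase was 0.746 ± 0.408 for Adamts15 and 0.345 ± 0.226 for Hrg, and the highest Hrg library (0.48) lay just under the lowest Adamts15 library (0.489).

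The libraries that stood apart departed from their groups to different extents at the 4 genes. VHL-KO replicate 4 differed from the mean of replicates 1 and 2 by a median of 1.45 in absolute log2 CPM over all tested genes. At the 4 genes the difference was -0.17 for Azgp1, 0.64 for Hrg, 0.45 for Ttc39c and 0.00 for Adamts15, each under that median. DKO replicate 3 differed from replicates 2 and 4 by a median of 0.361 over all tested genes. It was lower by 1.46 for Azgp1 and by 1.84 for Hrg on the log2 scale, and 93.3% and 96.5% of tested genes departed by less in absolute terms. For Ttc39c and Adamts15 the departures were -0.13 and -0.71. With both of these libraries left out, the log2 fold change was -2.60 for Azgp1, -1.68 for Ttc39c and -1.99 for Adamts15.

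Some markers of the proximal tubule and of podocytes, and some genes with male-biased expression, moved with the labels as well. Of the 12 proximal tubule markers, 7 fell past the unadjusted rule, among them the phosphate transporter Slc34a1 and the transcription factor Hnf4a, and none rose. The median log2 fold change of the 12 was -1.26, against 0.00933 over all tested genes. Among 5 podocyte markers 3 rose. Their summed level was 1330 to 1870 CPM under the VHL-KO label and 2280 to 5450 CPM under the DKO label. List sums are in CPM of the unscaled library total, while levels of single genes are scaled by TMM factors. Those factors were 0.831 to 0.969 under the VHL-KO label and 1.03 to 1.16 under the DKO label. Of 9 genes with male-biased expression in mouse kidney, 5 fell, and the median log2 fold change was -1.92. Their summed unscaled CPM was 22300 to 26100 under the VHL-KO label and 3280 to 12000 under the DKO label, lowest in DKO replicate 3. The numbers called moved with the libraries that stood apart. Without VHL-KO replicate 4, 10 proximal tubule markers and 5 male-biased genes fell and 4 podocyte markers rose. Without DKO replicate 3 the numbers were 4, 4 and 4, and without both they were 12, 8 and 5. In DESeq2 they were 9, 8 and 3. Over all genes, 684 fell and 387 rose in the main fit (4.68% and 2.65% of those tested), and 1133 and 418 in DESeq2. The numbers over all genes were 1071 and 1243 without VHL-KO replicate 4, 328 and 354 without DKO replicate 3, and 1531 and 1976 without both. The part of these shifts in the falls of the 4 genes was not tested. Hepatocyte markers were examined because Hrg is chiefly a liver gene. Of 15 such markers 10 had enough counts to be tested, 2 fell (Ttr and Serpina1a) and none rose. Neither was called without VHL-KO replicate 4, where Alb alone fell, and Serpina1a alone fell without DKO replicate 3. DESeq2 found 3 lower, and 4 fell with both libraries left out. For the list, the summed unscaled CPM was 314 to 455 under the VHL-KO label and 227 to 439 under the DKO label. Cps1 and Tat had 0 counts in every library, while 10 to 13 of the 15 markers were above the floor of 3 counts. Albumin (Alb) was at 9.34, 8.60 and 9.07 CPM against 4.09, 7.15 and 4.77 CPM. Ttr was at 228, 86.2 and 320 CPM against 83.6, 29.2 and 86.1 CPM. Apob was at 189, 161 and 35.4 CPM against 75.8, 286 and 95.7 CPM.

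Levels relative to the proximal tubule markers are a description too, since the 4 genes were selected on their fall between the same libraries. The log2 CPM of Azgp1 minus the mean log2 CPM of the 12 markers was -2.79, -2.77 and -3.41 in the VHL-KO libraries and -4.40, -6.24 and -4.37 in the DKO libraries, a difference of -2.01 between the means. The corresponding difference was -2.47 for Hrg, -0.85 for Ttc39c and -1.29 for Adamts15. The labels did not overlap for any of the 4 on this scale, although for Adamts15 the nearest libraries were at -4.86 and -5.04. This scale was added after the data had been seen.

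**Figure D2:**
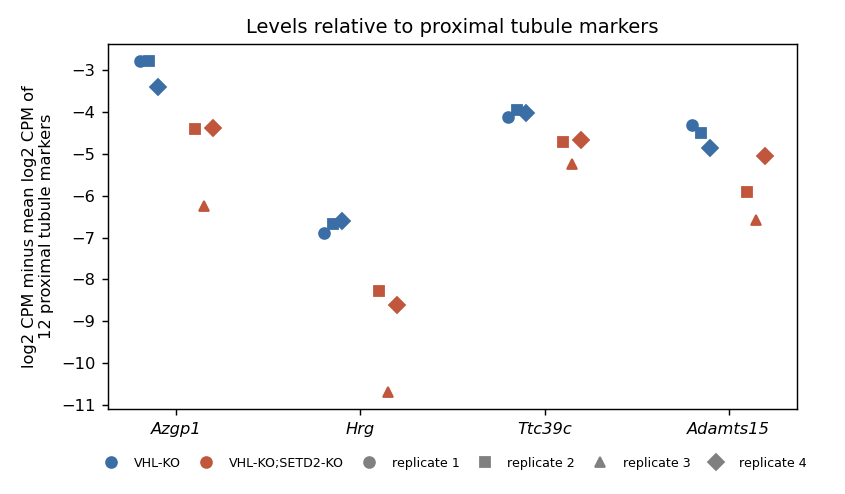
Log2 CPM of each gene minus the mean log2 CPM of 12 proximal tubule markers in the same library, with 1 point per library and the symbol giving the replicate number. The difference in means between the labels was -2.01 for Azgp1, -2.47 for Hrg, -0.85 for Ttc39c and -1.29 for Adamts15.

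The relatives, ligands and substrates of the 4 genes were then listed by function, 123 genes in 7 lists. Of these, 88 were tested, 3 fell (3.41% of those tested) and 4 rose (4.55%), against 4.68% and 2.65% of all tested genes, and their median log2 fold change was 0.03. These calls rest on unadjusted p-values, and the lowest adjusted p in the lists was 0.625 (edgeR with Benjamini-Hochberg adjustment). DESeq2's Wald test found 5 lower and 3 higher in these lists. Without VHL-KO replicate 4, 6 fell and 13 rose of 89 tested, while over all genes 1071 fell and 1243 rose. Without VHL-KO replicate 1, 4 fell and none rose, beside 982 and 199 over all genes. Without both libraries that stood apart, 9 fell and 21 rose of 86 tested, beside 1531 and 1976 over all genes. The calls given below for single lists without VHL-KO replicate 4 stand beside the same 1071 and 1243.

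Beside Azgp1, 0 of the 8 tested MHC class I-like genes had an unadjusted p under 0.05 in edgeR, and 0 in DESeq2, while 3 rose without VHL-KO replicate 4. Their median log2 fold change was -0.04. B2m, the light chain of class I molecules, was at 464 ± 233 CPM and 429 ± 55.5 CPM (SD, n = 3 each), and Fcgrt, the neonatal Fc receptor, had a log2 fold change of -1.10 (SE 0.72). The counts were also 0 by both tools for the 13 tested genes of lipolysis and adrenergic signalling, with a median of -0.39, and 2 rose without VHL-KO replicate 4. Pnpla2, which encodes adipose triglyceride lipase, had a log2 fold change of -0.61 (SE 0.57), and Plin2, a lipid droplet coat protein, one of -1.05 (SE 0.61). Gnas had one of -0.22 (SE 0.50), Ucp2 one of 0.02 (SE 0.69) and Mgll one of 0.29 (SE 0.48).

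Beside Hrg, 0 of the 3 tested members of the cystatin superfamily had an unadjusted p under 0.05 by either tool, and their median log2 fold change was -0.69. Cystatin C (Cst3), a secreted inhibitor of cysteine proteases, had a log2 fold change of -0.85 (SE 0.77), but rose past the rule without VHL-KO replicate 4. Cstb, an intracellular cystatin, had one of -0.69 (SE 0.46), with no overlap between the labels. Kng2, a kininogen gene 24.2 kb from Hrg, was at 69.3, 87.5 and 129 CPM under the VHL-KO label and at 97.6, 283 and 122 CPM under the DKO label, a log2 fold change of 0.82 (SE 0.53). The fetuin gene Ahsg had 0 counts in every library. Of the 17 tested genes among Hrg ligands, the contact system and fibrinolysis, 4 rose and 1 fell in edgeR, and 3 rose and 1 fell in DESeq2. Thrombospondin 1 (Thbs1), a ligand of histidine-rich glycoprotein, rose from 22.7, 39.0 and 22.8 CPM to 57.0, 81.2 and 75.2 CPM, a log2 fold change of 1.34 (SE 0.41). Tissue plasminogen activator (Plat) rose from 477, 877 and 626 CPM to 1590, 1250 and 1500 CPM, a log2 fold change of 1.14 (SE 0.45). Thbs2 rose with a log2 fold change of 0.92 (SE 0.40), and plasma kallikrein (Klkb1) with one of 2.03 (SE 0.78), the latter from at most 78 counts in a library. Klkb1 lost its call without VHL-KO replicate 4 and without DKO replicate 3, and Thbs2 was not called by DESeq2. Serpinf2, the plasmin inhibitor alpha-2-antiplasmin, fell from 331, 302 and 1320 CPM to 123, 82.4 and 141 CPM, a log2 fold change of -2.50 (SE 0.68). Without VHL-KO replicate 4, 4 genes of this list fell (Cd36, Plau, Sdc2 and Serpinf2) and 3 rose.

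Beside Adamts15, 0 of the 13 other tested ADAMTS and ADAMTS-like genes had an unadjusted p under 0.05 by either tool, while 3 rose without VHL-KO replicate 4. Their median log2 fold change was 0.30. Adamts1 was at 115 ± 100 CPM and 142 ± 80.4 CPM (SD, n = 3 each), and Adamts5 at 39.6 ± 15.9 CPM and 80.4 ± 64 CPM, both within the spread between mice. Of the hyalectans, the hyaluronan matrix and metalloproteinase inhibitors, 0 of 8 tested genes had an unadjusted p under 0.05 in edgeR, and 1, the convertase gene Furin, was lower in DESeq2. Versican (Vcan) was low in all libraries, at 0.77 ± 0.695 CPM and 1.16 ± 0.604 CPM, and Timp3, an inhibitor of ADAMTS proteinases, was at 1720 ± 998 CPM and 1950 ± 48.3 CPM. Among Ttc genes other than Ttc39c, 26 were tested and 2 fell, Ttc36 (log2 fold change -2.30, SE 0.71) and Ttc38 (log2 fold change -1.18, SE 0.51). Ttc38 lost its call without VHL-KO replicate 4, where Ttc36 and Ttc8 fell, and without DKO replicate 3, where Ttc36 alone fell. DESeq2 found 3 lower, with Ttc7 beside these 2. Of the close relatives of Ttc39c, Ttc39b was at 15.7, 14.8 and 3.46 CPM against 19.4, 19.3 and 20.9 CPM, and Ttc39a was at or under 1.03 CPM in every library.

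**Figure D3:**
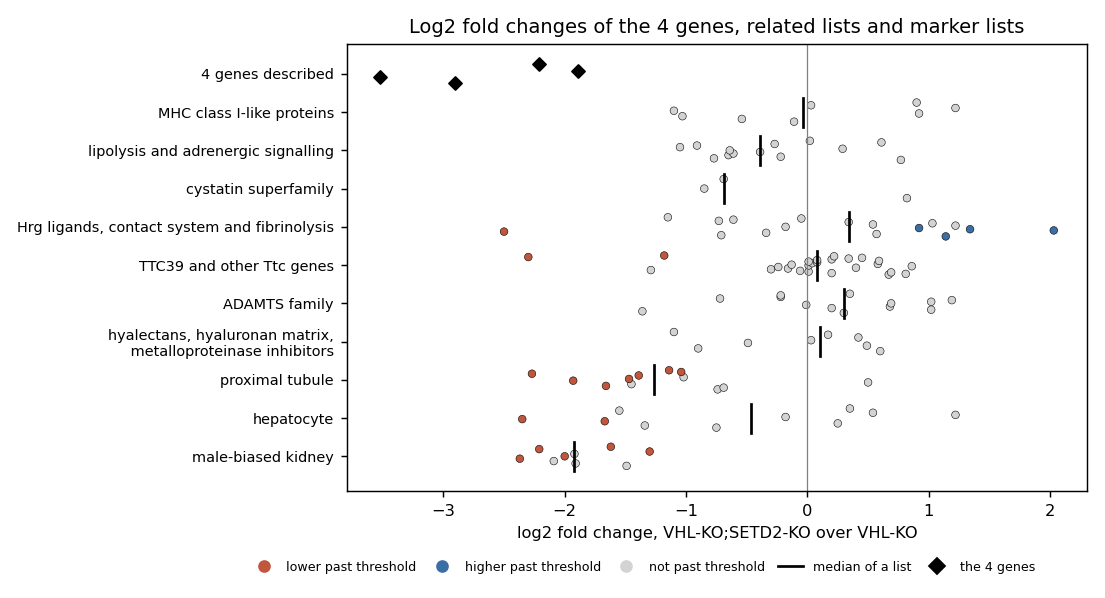
Log2 fold change (DKO over VHL-KO label) of the 4 genes, of the tested genes in 7 related lists and of the tested genes in 3 marker lists, with 1 point per gene and a bar at the median of each list. The medians of the related lists lay between -0.69 and 0.34, and those of the proximal tubule and male-biased lists were -1.26 and -1.92.

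The 4 genes lie on different chromosomes of GRCm38 (GENCODE M21). Azgp1 is on chromosome 5 from 137981520 to 137990233 (plus strand), Hrg on chromosome 16 from 22951072 to 22961656 (plus strand), Ttc39c on chromosome 18 from 12599896 to 12738863 (plus strand) and Adamts15 on chromosome 9 from 30899155 to 30922452 (minus strand). Among genes next to them, in RefSeq's order and with 5 tested genes on either side, 0 of 40 fell and 1 rose past the unadjusted rule, in edgeR and in DESeq2. The gene that rose was Opcml, 1970 kb from Adamts15, with a log2 fold change of 2.38 (SE 0.96). Its mean level was low, at 0.426 CPM under the VHL-KO label and 2.38 CPM under the DKO label. No limit was set on distance, and the farthest tested neighbour of Adamts15 lay 3800 kb away. Around Azgp1 the neighbours' log2 fold changes ran from -1.46 to 0.47, around Hrg from -1.12 to 0.82, around Ttc39c from -0.22 to 1.22 and around Adamts15 from -0.39 to 2.38. Lama3, which encodes a laminin chain, had a log2 fold change of -0.22. In RefSeq it ends at 12583013, 0.09 kb before the RefSeq start of Ttc39c, which lies ahead of the GENCODE start given above. Without VHL-KO replicate 4, Lama3 and Dgkg (294 kb from Hrg) fell past the rule. The annotation places 2 antisense genes and the microRNA gene Mir1948 over Ttc39c, and how the counting used strand is not given in the sources used here, so Ttc39c counts may include antisense reads. Mir1948 itself had at most 1 count in a library. No gene overlaps Azgp1, Hrg or Adamts15 in this annotation.

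**Figure D4:**
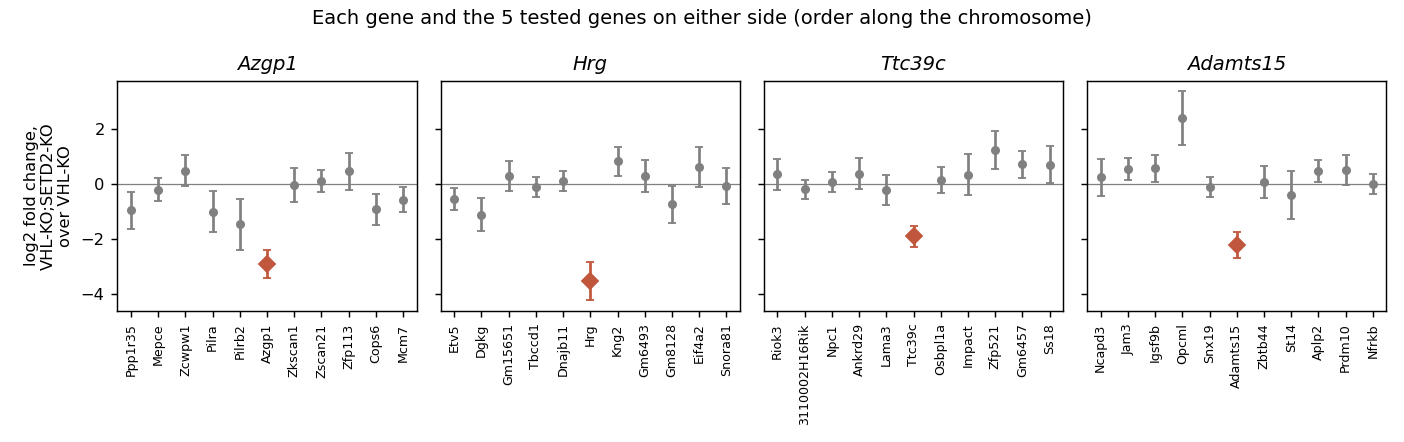
Log2 fold change ± SE (DKO over VHL-KO label) of each of the 4 genes (diamond) and of the 5 tested genes on either side in chromosomal order (circles, not to genomic distance). Each of the 4 genes lay below all 10 of its neighbours, which is a description only, since the 4 genes were selected on this fall and their neighbours were not.

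The genes whose log2 CPM followed each gene most closely over the 6 libraries were named by Pearson's r among the 12402 tested genes with a mean log2 CPM of at least 1. These correlations are over 6 libraries that share their labels, depth and scaling, and are a description. For Azgp1 they were Slc17a3 (r = 0.995), Mep1a (r = 0.993) and Ugt1a7c (r = 0.993). For Hrg they were Arhgef39 (r = 0.997), Hsd17b11 (r = 0.996) and Gm17709 (r = 0.991), and for Ttc39c they were Ugt3a2 (r = 0.998), Aqp7 (r = 0.996) and Ido2 (r = 0.996). For Adamts15 they were Mtor (r = 0.993), Slc22a4 (r = 0.988) and Brap (r = 0.987). An r of at least 0.95 was reached by 61 genes for Azgp1, 86 for Hrg, 95 for Ttc39c and 57 for Adamts15. Over the 5 libraries without VHL-KO replicate 4, Ugt3a2 was again among the first 3 for Ttc39c, and none of the first 3 was shared for the other genes. Over these 5 libraries an r of at least 0.95 was reached by 515, 423, 526 and 481 genes for Azgp1, Hrg, Ttc39c and Adamts15.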

How the data were processed

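RNA-seq libraries of PTECs from 6 mice were compared, 3 under each genotype label. The authors deposited raw counts per gene symbol, made from directional paired-end libraries. The submitters' processing notes name HISAT2 2.0.4 and GRCm38, and the counting program and annotation are not given in the sources used here. Columns of samples outside this comparison numbered 0. From the deposited counts, TMM factors (0.831 to 1.16), log2 CPM (prior count 2) and a quasi-likelihood fit were obtained in edgeR 4.0.16 (R 4.3.3) for the 14611 genes kept by filterByExpr, with the label as the only factor. The fit was also run on simulated counts, with the same dispersion for all genes and no library that stood apart. Those settings differ from these data, so nothing is read from that run here. A floor of 3 counts was 0.168 to 0.269 CPM and, like the interval given, covers counting error only. The thresholds (unadjusted p under 0.05, fold change of at least 1.5) follow the study's methods, which name DESeq2. DESeq2 1.42.0, limma-voom (limma 3.58.1), other library sizes and filters, the replicate number as a block and leaving out each library were alternatives. The members and the lists were chosen with earlier results of these data known. Named beside them were list genes past the unadjusted threshold, otherwise up to 4 of each list with the highest CPM, the 5 tested genes on either side, the 3 most alike in level, and targeted, sex-linked and marker genes. Some list and motif results are not reported here. Genes called only under an alternative, and Ahsg, Furin, Gnas, Plin2, Ucp2, Vcan, Ttc39a and Ttc39b were named after their values were seen. Promoters and gene order came from RefSeq (GRCm38.p6) (promoters of 2 of the 4 genes were used), and exon lengths and positions from GENCODE M21.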

Additional observations from a re-analysis of the deposited data

How the results depend on the processing

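The log2 fold changes of the 4 genes stayed below 0 under each of 16 alternatives (15 for Hrg, which had no value when at least 10 counts were required in every library). The genes were selected on their fall in these same libraries, so the sign that held is a description only. Relative to 12 proximal tubule markers they moved to -2.01 for Azgp1, -2.47 for Hrg, -0.85 for Ttc39c and -1.29 for Adamts15. With each library left out in turn they ranged from -3.22 to -2.54 for Azgp1, -3.82 to -3.05 for Hrg, -1.99 to -1.73 for Ttc39c and -2.74 to -1.97 for Adamts15, the lowest of these without DKO replicate 4. Over all genes, 684 were lower, 387 higher and 1 past an adjusted p under 0.05 (edgeR). DESeq2's Wald test gave 1133 lower and 51 past the adjusted threshold, and 5 genes of the related lists lower against 3. No filter gave 634 higher and 2 past the adjusted threshold, and at least 10 counts in every library gave 0 past it. Leaving out 1 library gave 206 (without DKO replicate 2) to 1078 lower (without VHL-KO replicate 2), 179 (without DKO replicate 2) to 1243 higher (without VHL-KO replicate 4), 0 (without any of the DKO libraries) to 1 past the adjusted threshold, and 2 to 6 lower and 0 to 13 higher in the lists. With both libraries that stood apart left out (chosen after seeing the data) the counts were 1531, 1976 and 2474, with 9 lower and 21 higher in the lists. The cause of these changes was not tested. The numbers 2 and 4 occur under both labels, and deviations of same-numbered libraries correlated at 0.165 and -0.319. These 2 values cannot decide whether the numbers pair the mice, since VHL-KO replicate 4 stood apart. The sources used here do not say whether they do. Under the replicate block, 54 genes were lower and 93 higher, with 0 lower and 0 higher in the lists. Azgp1, Hrg, Ttc39c and Adamts15 were then at -2.51 (SE 1.24), -3.17 (SE 1.18), -1.94 (SE 1.16) and -2.02 (SE 1.14). A crossed replicate block, added after seeing the data, gave 85 lower and 143 higher, with 0 and 0 in the lists. Limma-voom and the block moved the median of all tested genes from 0.00933 to 0.129 and 0.112. The depth limits Hrg most, with 36 counts over the 3 DKO libraries.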

Other observations

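Of 3 genes with female-biased expression in mouse kidney 2 rose in edgeR and 0 in DESeq2. The summed unscaled CPM of the list was 989 in DKO replicate 3 against 7.61 to 30.4 in the other 5 libraries. Without that library none rose. Endothelial markers did not pass the rule in the fit of 6 libraries, by either tool. Without DKO replicate 3, 4 of 6 rose, beside 354 higher over all genes, and without VHL-KO replicate 4 none rose. Plvap went the other way in the fit of 6 libraries, with a log2 fold change of -0.86 (SE 1.14). The summed unscaled CPM of the endothelial markers was 840 to 1630 under the VHL-KO label and 1490 to 4560 under the DKO label.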
